A study of Mus musculus with 24 samples.

Results

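The response of the Bm12.4 cell line to an inflammatory supernatant was measured on 8 of the 24 arrays of the series, chosen by their labels: 4 of Bm12.4 with supernatant and 4 of Bm12.4 in media alone. All 19938 genes with a probe set of their own were tested. Bm12.4 is an epithelial line, per its labels, from the upper reproductive tract of the B6(C)-H2-Ab1bm12/KhEgJ mouse, which carries an altered beta chain of the class II molecule. The supernatant arrays are from monolayers given 33% (v/v) conditioned RPMI medium. That medium came from a culture of a CD4 T cell clone specific for Chlamydia with an infected epithelial monolayer, and its interferon gamma was brought to 4 ng/ml. The media arrays are from untreated monolayers in RPMI medium. The same supernatant and media conditions were applied, on 4 arrays each, to C57epi.1, an upper reproductive tract line from the C57BL/6 mouse, and to GM-CSF macrophages grown from C57BL/6 femur bone marrow. The sources used here do not give the exposure time or say whether the replicates were separate cultures, so the p-values measure the spread between these arrays, which may be technical.

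Interferon gamma acts through its receptor and the kinases Jak1 and Jak2 on genes with GAS elements. Type I interferons act on genes with the related ISRE, through a complex that holds Stat2 and Irf9, and Irf1 made early in the response acts on ISRE-like sites as well. The induced genes include GTPases that attack the vacuole in which Chlamydia grows, antiviral enzymes, the machinery that presents peptides to T cells, and the chemokines that draw T cells in.

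All levels are log2 array signals normalised by RMA, and a difference of 1 is a 2-fold change. Over the 24 arrays the median signal lay between 5.0 and 5.19, and no pair of arrays held identical values. Pearson correlations over genes between arrays of a group were 0.9866 to 0.9964 among the Bm12.4 supernatant arrays and 0.967 to 0.9963 among the Bm12.4 media arrays. The Bm12.4 media arrays of replicates 1 and 2 stood apart from those of replicates 3 and 4, and the labels do not say what the numbers stand for. Results that this touches are also given within replicates 3 and 4 and within replicates 1 and 2, called the 2 sets below. The defining epithelial gene Epcam was at 3.42 to 3.84 in supernatant and 3.61 to 3.83 in media, and Cdh1 at 4.36 to 4.46 in supernatant and 4.17 to 4.68 in media. Both lay below the median gene, at 5.49 in supernatant and 5.53 in media. Of 43 epithelial markers, 28 averaged under 5 in media. Krt19, a keratin of simple epithelia and mesothelium, was at 11.89 to 12.49 in supernatant and 11.33 to 12.11 in media, and Upk3b, a mesothelial marker, at 11.77 to 12.42 in supernatant and 11.89 to 12.23 in media. The mesenchymal filament gene Vim was at 12.41 to 12.63 in supernatant and 12.38 to 12.53 in media. None of the 43 epithelial markers was called. The labelled cell type was thus not borne out by Epcam and Cdh1, though other markers on the list were higher, and the line is called by its name below. The supernatant came from T cells, and 0 of 26 T and NK cell markers were called in Bm12.4. The summed linear signal of those 26 markers was 365 to 413 in supernatant and 389 to 436 in media.

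The supernatant changed 1445 genes of Bm12.4 (limma, Benjamini-Hochberg adjusted p below 0.05), which is 7.25% of the genes tested. More genes rose than fell, and the rises were larger. 906 genes rose (4.54% of those tested), 346 of them at least 2-fold, while 539 fell (2.70%), 24 of them at least 2-fold. All 4 supernatant arrays lay above all 4 media arrays for 791 of the 906 genes that rose, and below them for 425 of the 539 that fell. Every gene called in either direction had the same sign within both sets of replicates, and 613 of the rises and 197 of the falls were called within both sets. The genes were called on these same arrays, which favours separated groups and equal signs. These counts thus describe the calls and are no further evidence for them. The median difference over all genes was −0.05. A fit on the 8 Bm12.4 arrays alone, with fewer arrays behind its estimate of the spread, called 786 genes, 738 of them among the 1445. The fit over all arrays shares the spread of each gene over the 6 groups. The lowest correlation within a group was 0.967 in Bm12.4 media, beside 0.9938 in macrophage media. Whether the shared spread made p-values of Bm12.4 too small was not tested.

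The largest rises were in interferon-induced genes. Gbp4, a guanylate-binding protein that is recruited to pathogen vacuoles, had signals of 10.59, 10.93, 11.25 and 10.88 in supernatant, against 3.81, 2.94, 4.73 and 3.77 in media. The lowest supernatant array thus lay far above the highest media array, and the difference of 7.10 ± 0.27 (model SE, n = 4 arrays a group) is a 137-fold ratio of signals (adjusted p = 8.02e-15). This SE and those of later differences rest on the model's spread per gene, shared over the 24 arrays of 6 groups. They are not the spread of the Bm12.4 arrays alone. The media mean of Gbp4, 3.81, lay below 3.89, the 25th percentile of gene means in media, and the files give no detection call, so the fold changes of genes with such low media signals depend on the array background. Ifi205, a member of the Ifi200 family of nuclear nucleic acid-binding proteins, had 11.26, 11.33, 11.40 and 11.36 in supernatant, against 4.03, 3.62, 5.38 and 4.95 in media. Ly6e, a lipid-anchored surface protein that restricts the entry of several viruses, had 11.41, 11.64, 11.76 and 11.57 in supernatant, against 4.71, 4.46, 5.27 and 5.01 in media. Both genes were separated without overlap, with differences of 6.84 ± 0.25 for Ifi205 and 6.73 ± 0.16 for Ly6e. Cxcl10, the chemokine ligand of the T cell receptor Cxcr3, had 13.63, 13.55, 13.51 and 13.44 in supernatant, against 7.62, 6.89, 7.67 and 7.95 in media, a 64.0-fold rise. Mpeg1, a pore-forming protein best known from macrophages, had 10.41, 10.78, 10.91 and 10.85 in supernatant, against 4.06, 3.90, 4.91 and 5.07 in media. Its rise of 6.25 ± 0.19 came without the macrophage genes Ptprc, Csf1r and Itgam, which lay between 3.17 and 4.67 in supernatant and between 3.29 and 4.72 in media and were not called. Of 32 macrophage markers 3 rose, Mpeg1 among them, beside 4.54% of all genes, and 29 were not called, with a list median of −0.0312. Cd53, another of the 3, was not called in a fit on the Bm12.4 arrays alone (adjusted p = 0.26). Its call was also lost without supernatant replicate 1 or 2 or media replicate 2 (adjusted p from 0.0742 to 0.107). The summed linear signal of the list was 2051 to 2662 in supernatant and 624 to 807 in media. Most of the rise in that sum was the signal of Mpeg1 itself. In bulk samples fewer cells of a type and less RNA per cell cannot be told apart.

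The other members of the 12 largest rises were Trim30a, an interferon-induced ubiquitin ligase family member (6.43), Iigp1, a GTPase that acts on vacuoles (6.40), Ifi206 of the Ifi200 family (6.25), Gbp11 (6.17), Gbp9 (5.89), Rsad2, which encodes the antiviral enzyme viperin (5.86), and Ddx60, a helicase of RNA sensing (5.64). For Trim30a, Iigp1 and Ddx60 the media arrays fell into 2 levels. Iigp1 was at 11.69, 11.78, 11.88 and 11.90 in supernatant, against 6.92 and 6.78 in media replicates 3 and 4 and 4.20 and 3.76 in media replicates 1 and 2. The supernatant arrays of these genes showed no such step. Several of these genes belong to families with near-identical members, the Gbp, Trim30, Ifi200 and Ifit families among them, so a probe set may read more than 1 member.

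**Figure D1:**
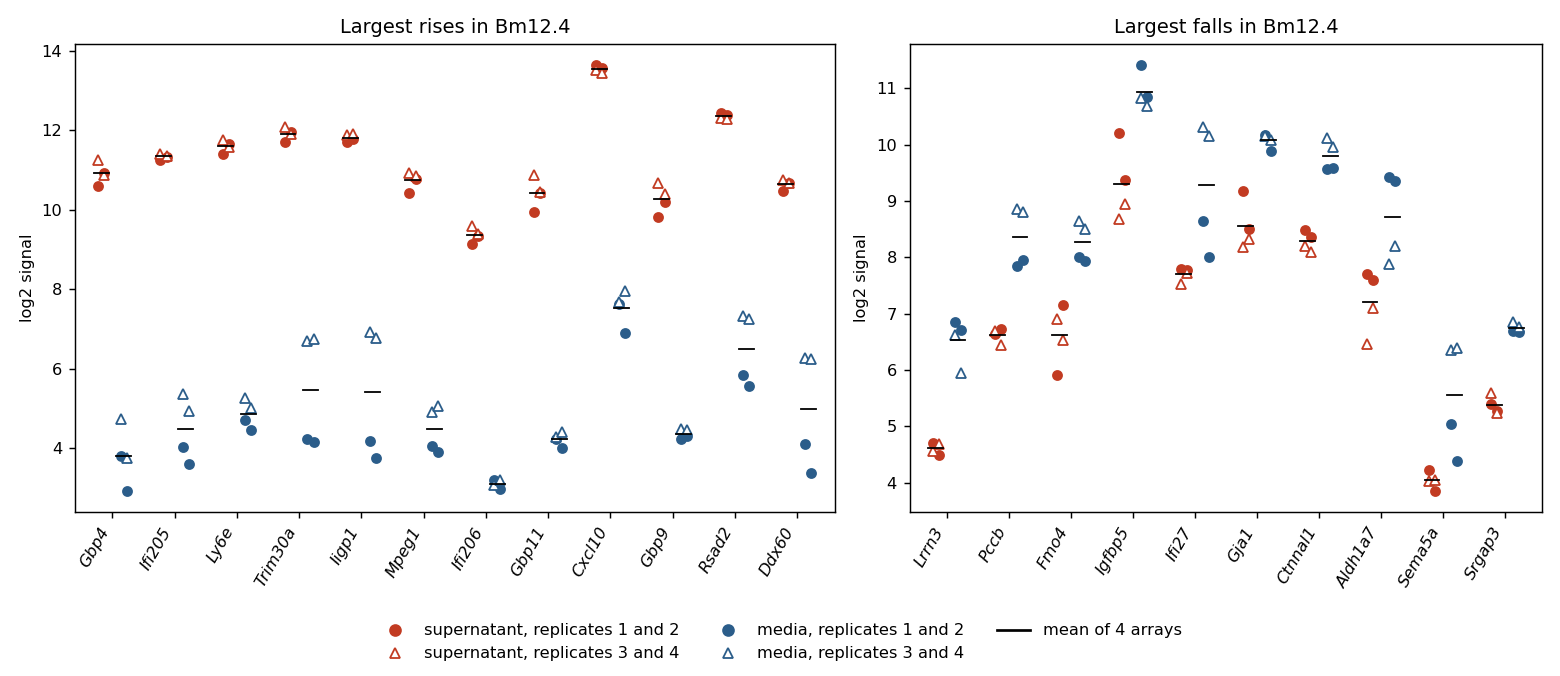
Log2 signals of the 8 Bm12.4 arrays for the 12 largest rises (left panel) and the 10 largest falls (right panel). For each gene the supernatant arrays (red) stand left of the media arrays (blue), filled circles are replicates 1 and 2, open triangles are replicates 3 and 4, and black lines are means of 4. The groups are apart for every gene shown, and for Trim30a, Iigp1 and Ddx60 the media triangles lie well above the media circles.

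The promoters of the genes that rose were searched for the elements through which interferons act, in the 250 bases before each transcription start listed by RefSeq on build GRCm38.p6. A promoter entry was matched for 15563 of the 19938 genes and for 7 of the 12 largest rises. The motifs, each read on both strands, were an ISRE core (GAAA, any 2 bases, GAAA), the GAS element (TTCNNNGAA), a kappaB element (GGG, any 2 bases, TT, any base, CC) and the CHR element of cell cycle genes (TTTGAA). Where they overlap, each was counted. The 3 largest rises that hold an ISRE core or GAS are printed with Mpeg1, the largest that holds neither, and Irf1, added after its values were seen as the induced transcription factor with a GAS. Bases run 5′ to 3′ on the strand of the gene up to the base before the start, with the ISRE core or GAS in capitals. The stretches are Ifi205 (chr1:174031756-174032005, minus strand), Trim30a (chr7:104465194-104465443, minus strand), Ifi206 (chr1:173491319-173491568, minus strand), Mpeg1 (chr19:12460520-12460769, plus strand) and Irf1 (chr11:53769764-53770013, plus strand). Trim30a and Irf1 have 2 listed starts each, and the stretch shown is the first with a match. A gene was counted as holding a motif when the stretch before any of its starts did.
Ifi205: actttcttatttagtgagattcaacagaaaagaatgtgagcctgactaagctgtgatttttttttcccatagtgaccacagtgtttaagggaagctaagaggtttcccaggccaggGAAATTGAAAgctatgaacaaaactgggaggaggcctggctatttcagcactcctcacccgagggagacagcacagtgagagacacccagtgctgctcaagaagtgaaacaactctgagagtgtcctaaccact
Trim30a: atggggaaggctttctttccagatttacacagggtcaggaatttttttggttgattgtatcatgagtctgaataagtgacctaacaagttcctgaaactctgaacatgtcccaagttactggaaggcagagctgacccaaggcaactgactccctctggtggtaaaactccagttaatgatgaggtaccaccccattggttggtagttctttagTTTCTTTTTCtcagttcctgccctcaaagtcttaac
Ifi206: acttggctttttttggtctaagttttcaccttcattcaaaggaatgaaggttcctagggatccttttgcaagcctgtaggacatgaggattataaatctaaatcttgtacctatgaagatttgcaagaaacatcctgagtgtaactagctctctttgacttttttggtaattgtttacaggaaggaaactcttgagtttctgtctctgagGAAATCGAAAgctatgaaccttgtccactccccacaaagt
Mpeg1: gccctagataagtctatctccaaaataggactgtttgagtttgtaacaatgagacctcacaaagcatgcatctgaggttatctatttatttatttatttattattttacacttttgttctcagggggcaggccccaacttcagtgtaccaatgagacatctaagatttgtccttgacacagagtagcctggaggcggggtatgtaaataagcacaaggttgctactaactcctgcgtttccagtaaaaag
Irf1: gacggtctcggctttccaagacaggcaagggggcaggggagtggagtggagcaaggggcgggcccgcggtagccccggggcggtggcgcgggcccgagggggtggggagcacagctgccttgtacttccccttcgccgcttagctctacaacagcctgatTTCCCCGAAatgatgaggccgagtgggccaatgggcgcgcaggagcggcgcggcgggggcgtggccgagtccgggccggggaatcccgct

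In these stretches the ISRE core began 134 bases before the start in Ifi205 and 40 bases before it in Ifi206, and it ended 27 bases before the start, on the opposite strand, in Trim30a. The GAS of Irf1 began 90 bases before the start. An ISRE core was found in 55 of the 266 promoters of genes that rose at least 2-fold (20.7%), beside 3.4% of all 15563 promoters. A GAS was found in 33 of the 266, beside 7.73% of all promoters, and a kappaB element also in 33 of the 266, beside 5.03%. Among the 433 promoters of genes that fell by any amount, 2.31% held an ISRE core and 8.08% a GAS. Of the 19 promoters of genes that fell at least 2-fold, 1 held an ISRE core and 3 a GAS. At this like threshold the GAS share was no lower among the falls than among the rises. The 19 promoters are few, and the difference between these shares was not tested. A match describes these letters only and says nothing on whether a factor binds there.

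Every measured member of the interferon-inducible GTPases rose, 10 of 10, beside 4.54% of all genes, with a median difference of 5.56. These proteins coat and disrupt the membranes around intracellular bacteria and parasites. Gbp5 rose by 5.63, Gbp8 by 5.04 and Irgm1, which regulates the other immunity-related GTPases, by 3.85. The smallest rise was that of Gbp2b, with 4.33, 4.61, 4.23 and 4.70 in supernatant, against 3.84, 3.94, 4.05 and 4.03 in media. Gbp2, Igtp and the remaining names on the list have no probe set of their own and were not analysed here.

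Of 50 antiviral effectors, 44 rose and 1 fell, beside 4.54% and 2.70% of all genes, with a median of 3.16. The rises took in inhibitors of viral replication such as Mx1 (4.95) and Mx2 (4.93), the RNA-binding Ifit3 (5.50), the oligoadenylate synthetases Oas3 (4.43) and Oas1a (3.98), and Usp18 (5.09), the protease that limits interferon signalling. Ifi27, a mitochondrial interferon-stimulated gene, was the exception. It had 7.79, 7.78, 7.52 and 7.73 in supernatant, against 8.65, 8.0, 10.31 and 10.16 in media. All 4 supernatant arrays lay below the media arrays, but most of the gap came from media replicates 3 and 4, and the call was lost without media replicate 3 (adjusted p = 0.0648) or media replicate 4 (adjusted p = 0.0605). The 5 members not called included Ifitm2, with 11.08 to 11.93 in supernatant and 10.92 to 11.68 in media. All 8 measured members of the Ifi200 family rose, from 0.37 for Aim2, whose groups overlapped and which was not called with the replicate number as a block (adjusted p = 0.071), to 6.84 for Ifi205.

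Of 30 genes of interferon signalling, 12 rose and none fell, beside 4.54% and 2.70% of all genes. Irf1, a transcription factor made early in the response to interferon gamma, had 11.44, 11.38, 11.29 and 11.23 in supernatant, against 8.23, 8.82, 9.44 and 9.20 in media, and rose 5.32-fold. Batf2 (4.87), a partner of Irf1 in macrophages, Irf7 (4.05), Stat2 (3.17), Irf9 (1.85) and the feedback inhibitor Socs1 (1.29) rose as well. Irf9 was not called in a fit on the Bm12.4 arrays alone (adjusted p = 0.122). The receptor chain genes Ifngr1, at 8.79 to 8.90 in supernatant and 8.87 to 8.98 in media, and Ifngr2, at 9.98 to 10.54 in supernatant and 9.85 to 10.37 in media, were not called.

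**Figure D2:**
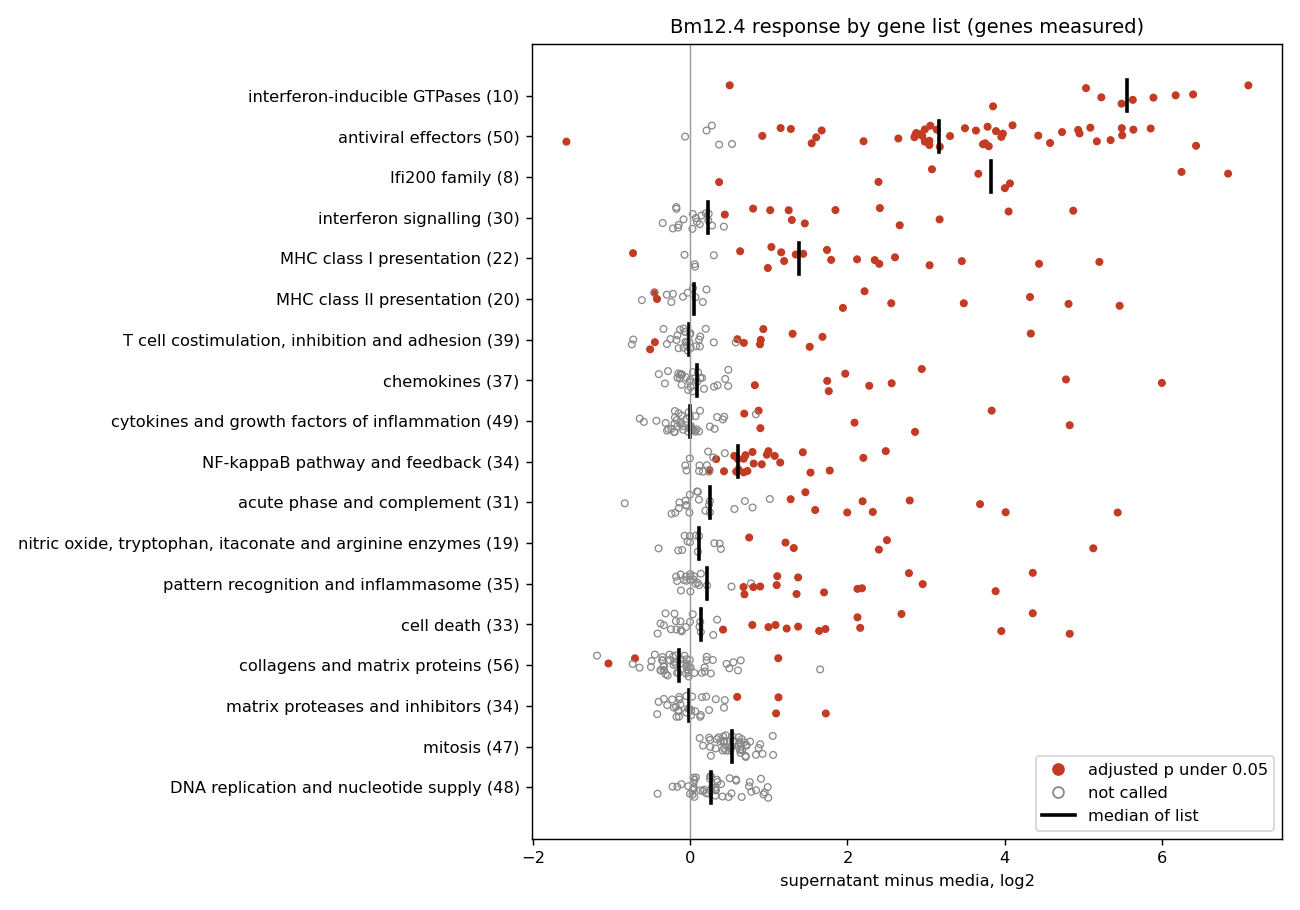
Supernatant minus media difference (log2) of each measured gene in 18 lists, with the number of genes in brackets. Filled red points passed adjusted p below 0.05, open grey points did not, and black bars are list medians, which are 5.56 for the GTPases and 3.16 for the antiviral effectors. Vertical position within a list is random.

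Peptide presentation on class I molecules rose across its steps, with 17 of 22 genes higher and 1 lower and a median of 1.39. The shares over all genes were 4.54% higher and 2.70% lower. The peptide transporter genes Tap1 and Tap2 rose by 3.46 and 2.35, and B2m, the light chain of class I, by 1.20. Psmb9, an immunoproteasome subunit that replaces a constitutive catalytic subunit, had 10.90, 11.30, 11.39 and 11.34 in supernatant, against 6.74, 5.98, 7.33 and 7.13 in media. Psmb8, its partner subunit, had 5.86, 6.11, 5.79 and 5.81 in supernatant, against 4.78, 4.82, 5.33 and 4.69 in media. Neither gene's groups overlapped, and the rise was 21.7-fold for Psmb9 and 1.98-fold for Psmb8. H2-Q4, a nonclassical class I gene, rose by 5.21, and Nlrc5, the transactivator of class I genes, by 1.03. The one fall was that of Calr, a chaperone of class I folding (−0.73), and its call was lost without supernatant replicate 3 or 4 or media replicate 1 or 2 (adjusted p from 0.0735 to 0.0969).

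On the class II side 7 of 20 genes rose and 2 fell, beside 4.54% and 2.70% of all genes. Ciita, the master regulator of class II transcription, had 6.42, 6.81, 6.87 and 6.90 in supernatant, against 4.24, 4.56, 4.82 and 4.51 in media. H2-Ab1, which encodes the beta chain that is altered in this mouse strain, had 7.16, 9.18, 10.04 and 9.56 in supernatant, against 4.02, 4.25, 4.23 and 4.19 in media. Its alpha chain partner H2-Aa had 7.22, 8.86, 9.85 and 9.31 in supernatant, against 3.14, 3.65, 3.40 and 3.20 in media. The groups did not overlap for any of these, and supernatant replicate 1 was the lowest of its group for each. The differences were 2.22 ± 0.14 for Ciita, 4.81 ± 0.35 for H2-Ab1 and 5.46 ± 0.33 for H2-Aa. The same array was lowest for the invariant chain gene Cd74 (9.36, beside 10.43 to 10.79 in the other 3 supernatant arrays) and for H2-Eb1 (7.62, beside 9.33 to 9.95). Whether the altered bases of H2-Ab1 touch its probes was not tested. The falls were those of Ifi30, a lysosomal thiol reductase (−0.46), and Rfxap, a subunit of a class II promoter complex (−0.42). With the replicate number as a block the fall of Rfxap was not called (adjusted p = 0.0668). The call of Ifi30 was lost without supernatant replicate 3 or 4 or media replicate 1 or 2 (adjusted p from 0.0591 to 0.0983), and that of Rfxap without supernatant replicate 2, 3 or 4 or media replicate 2 or 3 (adjusted p from 0.0645 to 0.106).

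Of 39 surface molecules that help, hold back or bind T cells, 9 rose, beside 4.54% of all genes, and 2 fell. The inhibitory ligand Cd274 (PD-L1) had 8.86, 9.15, 8.85 and 8.93 in supernatant, against 4.59, 3.95, 5.13 and 4.79 in media, a 20.1-fold rise with no overlap. Rises were smaller for Lgals9, an inhibitory lectin (1.68), the adhesion molecules Icam1 (1.52) and Vcam1 (0.90), and the costimulatory ligand Cd80 (0.89). Cd40, the receptor of the T cell helper ligand, was at 4.81 to 5.12 in supernatant and 4.95 to 5.14 in media and was not called. The same held for Cd86, the other ligand of Cd28, at 2.94 to 3.28 in supernatant and 3.14 to 3.28 in media.

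Secreted signals changed in a few genes by large amounts. 9 of 37 chemokine genes rose, beside 4.54% of all genes. After Cxcl10 came Cxcl9, another Cxcr3 ligand, with 8.97, 8.44, 8.50 and 8.27 in supernatant, against 4.12, 3.44, 3.94 and 3.56 in media. The monocyte attractants Ccl2 and Ccl7 rose by 2.94 and 2.56, the Ccr6 ligand Ccl20 by 2.28, and Ccl5, an attractant of T cells, by 1.76. Ccl20 was not called in a fit on the Bm12.4 arrays alone (adjusted p = 0.0618). The neutrophil attractants Cxcl1, at 10.85 to 11.67 in supernatant and 10.15 to 11.37 in media, and Cxcl5, at 11.60 to 12.56 in supernatant and 10.99 to 12.32 in media, overlapped between the groups and were not called. Of 49 cytokine genes 7 rose, beside 4.54% of all genes, while 42 were not called and the list median was −0.005. The rises were led by the death ligand Tnfsf10 (4.83), Il15, which sustains NK and memory T cells (3.83), and Il18bp, the decoy for Il18 (2.86). Il6 had 5.55, 4.59, 4.84 and 4.53 in supernatant, against 2.64, 2.90, 2.79 and 2.82 in media. Tnf, at 4.38 to 4.81 in supernatant and 4.36 to 4.71 in media, and Il1b, at 3.43 to 3.60 in supernatant and 3.34 to 3.67 in media, were not called.

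In the NF-kappaB pathway 23 of 34 genes rose and none fell, beside 4.54% and 2.70% of all genes, with a median of 0.609. With 1 Bm12.4 array left out 17 to 21 of the 34 rose, and 16 did in a fit on the Bm12.4 arrays alone. The feedback inhibitors led: Tnip3 (2.49), Tnfaip3 (2.20), which encodes the deubiquitinase A20, and Nfkbie (1.77). Acute phase and complement genes contributed 10 rises out of 31, beside 4.54% of all genes. Cfb, a protease component of the alternative complement pathway, had 10.04, 10.64, 10.96 and 10.58 in supernatant, against 4.68, 4.53, 5.67 and 5.59 in media. The complement inhibitor Serping1 rose by 4.01, C4b by 3.69 and the siderophore-binding Lcn2 by 2.79. Saa3, an acute phase apolipoprotein, had 11.92, 12.81, 13.41 and 12.99 in supernatant, against 9.63, 9.85, 12.10 and 11.56 in media. Supernatant replicate 1 lay below media replicate 3, and the call of Saa3 was lost without supernatant replicate 3 or 4 or media replicate 1 or 2 (adjusted p from 0.052 to 0.0725). A fit on the Bm12.4 arrays alone called 6 of the 31 genes.

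Of 19 genes of nitric oxide, tryptophan, itaconate and arginine use, amino acid transporters among them, 6 rose, beside 4.54% of all genes. Acod1, which makes itaconate, had 10.08, 10.11, 9.98 and 9.43 in supernatant, against 4.64, 4.81, 4.73 and 4.91 in media. Nos2, the inducible nitric oxide synthase, had 7.4, 7.23, 6.75 and 6.37 in supernatant, against 4.29, 4.11, 4.84 and 4.5 in media. The rise was 35.0-fold for Acod1 and 5.67-fold for Nos2, with no overlap for either. Ido1, which degrades tryptophan and so limits the growth of Chlamydia in human cells, had 4.99, 4.04, 4.06 and 4.08 in supernatant, against 3.54, 3.41, 3.59 and 3.63 in media. Its difference of 0.75 ± 0.23 was at the edge of the call (adjusted p = 0.0493) and was lost when any 1 Bm12.4 array was left out, most of all supernatant replicate 1 (difference 0.52, adjusted p = 0.2). Wars, the tryptophan tRNA synthetase, rose by 2.40.

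Some sensors of microbes and genes of cell death were among the rises, which took in 4.54% of all genes. Of 35 pattern recognition and inflammasome genes, 15 rose, among them the nucleic acid sensors Zbp1 (4.36), Ifih1 (2.96), Tlr3 (2.78) and the inflammatory caspases Casp4 (2.13) and Casp1 (1.37). Of 33 cell death genes 14 rose, with the necroptosis effector Mlkl (2.16), the death receptor Fas (1.64) and the pyroptosis effector Gsdmd (1.23) among those called. Neither list had a fall. Zbp1 and the caspases stand on both lists.

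The falls were smaller than the rises. In the fit over all arrays none of the 35 lists had more than 2 of them, beside 2.70% of all genes. With 1 array left out the collagens and matrix proteins had up to 6. The class II list and the list of prostaglandin, endothelin and angiogenic signals had up to 3 each. Lrrn3, a leucine-rich repeat membrane protein, had 4.71, 4.49, 4.57 and 4.69 in supernatant, against 6.85, 6.72, 6.62 and 5.95 in media. Pccb, a subunit of propionyl-CoA carboxylase, had 6.64, 6.73, 6.69 and 6.45 in supernatant, against 7.85, 7.96, 8.85 and 8.81 in media. Both genes were separated without overlap, at −1.92 ± 0.14 for Lrrn3 and −1.74 ± 0.22 for Pccb. Gja1, the gap junction protein connexin 43, had 9.18, 8.51, 8.19 and 8.33 in supernatant, against 10.18, 9.88, 10.16 and 10.09 in media. Igfbp5, which binds insulin-like growth factors, had 10.21, 9.38, 8.69 and 8.94 in supernatant, against 11.41, 10.84, 10.83 and 10.69 in media. The remaining members of the 10 largest falls, besides Ifi27, were the flavin monooxygenase Fmo4 (−1.65), Ctnnal1 (−1.52), Aldh1a7 (−1.51), the guidance molecule Sema5a (−1.51) and Srgap3 (−1.37). In a fit on the Bm12.4 arrays alone Ifi27, Aldh1a7 and Sema5a were not called (adjusted p from 0.0941 to 0.142). The call of Fmo4 was lost without supernatant replicate 1 or 4 or media replicate 3 or 4 (adjusted p from 0.0605 to 0.0938).

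The calls among tissue structure genes over all 4 replicates are also given beside the 7.25% of all genes. Of 56 collagens and matrix proteins, 1 rose (Tnc, 1.12) and 2 fell (Eln, the elastin gene, at −1.04 and Col5a2 at −0.70), and 5 to 7 were called when media replicate 1, 2, 3 or 4 was left out and 7 with the replicate number as a block. Within replicates 3 and 4, 18 of the 56 fell and 3 rose, and within replicates 1 and 2, 4 fell and 9 rose. Of all 19938 genes, 1342 fell and 1532 rose within replicates 3 and 4. Within replicates 1 and 2, 1019 of them fell and 1396 rose. The call of Tnc was lost without supernatant replicate 1 or 2 or media replicate 3 (adjusted p from 0.0517 to 0.062). Of 34 matrix proteases and inhibitors 4 rose, with Mmp13 at 1.73, and 2 did without supernatant replicate 1. Of 33 contractile and TGF-beta response genes, Ltbp1, which tethers latent TGF-beta, rose by 2.78, Ankrd1 rose by 1.40 and Tgfbi fell by 0.59. The call of Ankrd1 was lost without supernatant replicate 1, 2 or 3 or media replicate 3 or 4 (adjusted p from 0.0600 to 0.157). Ptgs2, the inducible cyclooxygenase, rose by 2.09. None of the 24 female tract regulators was called.

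The calls in metabolic and stress lists are given beside the 7.25% of all genes. Of 35 genes of the amino acid and Atf4 response, 2 rose, with the stress transcription factor Ddit3 at 1.65, and 1 fell. Of 25 glycolysis genes, Hk2, a hexokinase, rose by 1.45 and Pfkm, a phosphofructokinase, fell by 0.84. The call of Pfkm was lost without supernatant replicate 1 or media replicate 3 or 4 (adjusted p from 0.0562 to 0.0642), and neither gene was called in a fit on the Bm12.4 arrays alone. Of 27 genes of sterol synthesis and uptake, 1 rose (Abca1, the cholesterol exporter, at 1.28) and 1 fell. Abca1 was not called in a fit on the Bm12.4 arrays alone (adjusted p = 0.194). Of 42 growth arrest and immediate early genes 3 rose, Gadd45g at 1.43 the most, and 5 genes were called without media replicate 1 and 6 without media replicate 2 or with the replicate number as a block. Of 32 lysosome and autophagy genes 7 rose, and 4 did without any one of supernatant replicates 2, 3 and 4 and media replicates 1 and 2. Among cell type markers not yet described, 2 of 31 stromal genes rose and 1 fell, 1 of 23 mesothelial genes fell, 1 of 14 endothelial genes rose (Flt1, at 1.25) and 1 fell (Egfl7, at −0.76), Bst2, itself an interferon-stimulated antiviral gene, rose among 14 dendritic cell genes, Mmp8 among 14 neutrophil genes, and none of 8 B cell genes was called. The stromal count of 3 was 2 without supernatant replicate 3, 5 without media replicate 3 and 6 with the replicate number as a block, and the stromal fall, that of S100a4, was lost without supernatant replicate 3 or media replicate 2 or 4 (adjusted p from 0.0555 to 0.12). The mesothelial fall, that of Gpm6a, was lost with the replicate number as a block (adjusted p = 0.0567) and without supernatant replicate 1, 3 or 4 or media replicate 3 or 4 (adjusted p from 0.0519 to 0.0986).

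The response was not of the same size in the 2 sets of replicates. The sets were formed because the media arrays were known to differ that way, so the counts here describe that difference and are no independent evidence of it. In media, 5984 genes (30.0% of those tested) differed between replicates 3 and 4 and replicates 1 and 2, whereas 872 did in supernatant. Ifit3 was at 8.74 and 9.33 in media replicates 3 and 4 and at 5.61 and 4.02 in media replicates 1 and 2, while its supernatant arrays held 12.16, 12.33, 12.59 and 12.60. Irf7, the transcription factor that amplifies type I interferon, was at 9.95 and 10.30 in media replicates 3 and 4 and at 6.69 and 6.22 in media replicates 1 and 2, with 12.05, 12.32, 12.48 and 12.51 in supernatant. The supernatant levels of both genes were close together, and the step was in media. Over the 50 antiviral effectors, replicates 3 and 4 exceeded replicates 1 and 2 by a median of 1.26 in media and 0.168 in supernatant.

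The supernatant changed 2874 genes within replicates 3 and 4 (14.4% of those tested) and 2415 within replicates 1 and 2 (12.1%). 849 genes were called in both sets in the same direction and 129 in opposite directions. The difference between the responses of the sets was called for 1835 genes (9.20%), 987 with a higher and 848 with a lower value in replicates 3 and 4. With each array centred on its median that split was 1133 and 512. Media arrays also differed between the sets in 1792 of the 1835. The 6 genes whose response was reduced most in replicates 3 and 4 are all interferon-stimulated: Ifit3 (−3.87), Irf7 (−3.36), Gbp3 (−3.29), Rtp4 (−3.21), Oasl2 (−3.10) and Gbp7 (−2.90). For 96 of the 346 genes that rose at least 2-fold the rise was smaller in replicates 3 and 4, and for 12 it was larger. H2-Aa was among these 12, with 6.28 within replicates 3 and 4 and 4.64 within replicates 1 and 2.

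Proliferation genes were among the 987 with a higher value in replicates 3 and 4, with 39 mitosis genes and 40 replication genes. Gins1, a subunit of the replicative helicase complex, was at 7.81, 7.42, 6.39 and 7.03 in supernatant, against 4.27 and 4.30 in media replicates 3 and 4 and 7.96 and 8.18 in media replicates 1 and 2. The groups overlapped, and the supernatant arrays lay between the 2 levels of the media arrays. The difference was 2.42 within replicates 3 and 4 and −0.46 within replicates 1 and 2. Of 47 mitosis genes, none was called over all 4 replicates, at a median of 0.535 (limma; Mki67, the proliferation antigen gene, had a difference of 0.36). Within replicates 3 and 4, 46 of them rose (median 1.43), and within replicates 1 and 2, 2 fell (median −0.295). Of 48 genes of DNA replication and nucleotide supply none was called over all 4 replicates either. Within replicates 3 and 4, 37 of these rose, and within replicates 1 and 2, 8 fell. Of all 19938 genes, 1532 rose within replicates 3 and 4 and 1019 fell within replicates 1 and 2. With the replicate number as a block, 3 mitosis genes and 1 replication gene rose. In media, all 47 mitosis genes were lower in replicates 3 and 4 than in replicates 1 and 2, at a median difference of −2.38. In supernatant 11 of them were, at a median of −0.625. Of the 48 replication genes, 47 were lower in media (median −2.22) and 40 were lower in supernatant (median −0.887), so their step was not confined to media. Of all 19938 genes, 2909 were lower in media and 718 in supernatant. Tfrc, the transferrin receptor, had 9.46, 8.51, 8.06 and 7.93 in supernatant, against 6.88 and 6.80 in media replicates 3 and 4 and 10.42 and 10.15 in media replicates 1 and 2. What sets replicates 3 and 4 apart from replicates 1 and 2 was not tested.

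**Figure D3:**
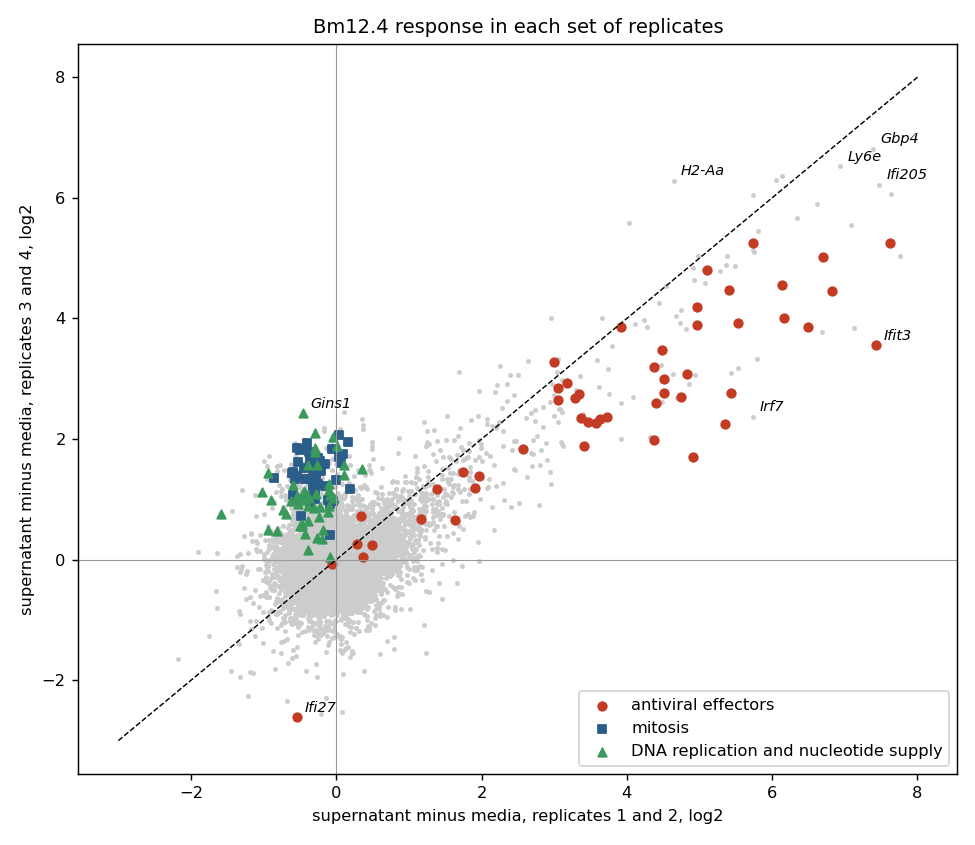
Supernatant minus media difference (log2) of every gene tested within replicates 3 and 4 (y axis) and within replicates 1 and 2 (x axis), 2 arrays a group in each. Grey points are all genes, and coloured points are 3 lists. Most antiviral effectors lie below the dashed line of equal response, Ifit3 at 3.56 on the y axis and 7.43 on the x axis, and most mitosis and replication genes lie above 0 on the y axis and near or below 0 on the x axis.

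The Bm12.4 response was set against that of C57epi.1 by a test of the difference between the 2 responses, which share no arrays. 803 genes differed (4.03% of those tested), 406 with a higher and 397 with a lower response in Bm12.4, and 1210 did with the replicate number as a block. Of the 906 genes that rose in Bm12.4, 572 also rose in C57epi.1, which is 63.1% of the Bm12.4 rises and 32.4% of the C57epi.1 rises. Of the 539 genes that fell in Bm12.4, 286 also fell in C57epi.1, which is 53.1% of the Bm12.4 falls and 13.8% of the C57epi.1 falls. Of the 12 largest rises in Bm12.4, only Ly6e had a response that differed from that of C57epi.1, by 3.54 ± 0.23. Its supernatant mean was 11.6 in Bm12.4 and 11.6 in C57epi.1, and its media mean was 4.86 ± 0.35 in Bm12.4 and 8.36 ± 0.32 in C57epi.1 (SD, n = 4 each), so the gap between the lines lay in the media means.

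The immunoproteasome genes responded in opposite order in the 2 lines. Psmb9 rose by 4.44 in Bm12.4, against a difference of 0.35 in C57epi.1 that was not called, and Psmb8 rose by 0.99 in Bm12.4, against 3.09 in C57epi.1. Both differences between the lines were called, at 4.09 ± 0.30 for Psmb9 and −2.10 ± 0.17 for Psmb8. The third inducible subunit gene, Psmb10, rose by 2.40 in Bm12.4, against 3.10 in C57epi.1, and the difference was not called (adjusted p = 0.15). The antiviral genes Cmpk2, a mitochondrial nucleotide kinase encoded next to Rsad2, and Parp12, an ADP-ribosyltransferase, showed a similar contrast. Cmpk2 averaged 10.4 ± 0.20 in supernatant and 5.07 ± 0.79 in media in Bm12.4, against 3.83 ± 0.33 in supernatant and 3.89 ± 0.17 in media in C57epi.1. Parp12 averaged 11.2 ± 0.05 in supernatant and 8.37 ± 0.73 in media in Bm12.4, against 3.86 ± 0.10 in supernatant and 4.07 ± 0.12 in media in C57epi.1 (SD, n = 4 each). Both levels in C57epi.1 were near 3.83, the 25th percentile of gene means in that line with supernatant, and neither gene was called there.

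The remaining genes with the largest higher responses in Bm12.4 were H2-Q4 (2.79) and Prelp, a matrix proteoglycan (2.69). Prelp was not called as changed in Bm12.4 and fell in C57epi.1 (−2.48), and this difference between the lines was lost in a fit on the arrays of the 2 lines alone (adjusted p = 0.137), under a trended robust fit (adjusted p = 0.0535) and without 5 of the 8 Bm12.4 arrays in turn (adjusted p up to 0.0877). Lower responses in Bm12.4 were led by Xdh, xanthine dehydrogenase, which rose by 1.71 in Bm12.4, against 5.06 in C57epi.1. Xdh averaged 11.98 ± 0.13 in supernatant and 10.3 ± 0.68 in media in Bm12.4, against 10.0 ± 0.05 in supernatant and 4.96 ± 0.50 in media in C57epi.1. Cxcl11, the third Cxcr3 ligand, rose by 1.97 in Bm12.4, against 4.88 in C57epi.1, and Cxcl9 rose by 4.78, against 7.11. Phf11d, an interferon-induced zinc finger gene, rose by 2.98, against 5.74. The hormone gene Apela, the carbonic anhydrase gene Car6 and the lipid transporter gene Mfsd2a were not called in Bm12.4 and rose in C57epi.1, by 3.26, 2.65 and 2.08. The difference for Car6 was lost in a fit on the arrays of the 2 lines alone (adjusted p = 0.12), under a trended robust fit (adjusted p = 0.0585) and without 5 of the 8 Bm12.4 arrays in turn (adjusted p up to 0.104). That for Mfsd2a was also lost in the fit on the arrays of the 2 lines alone (adjusted p = 0.0631).

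**Figure D4:**
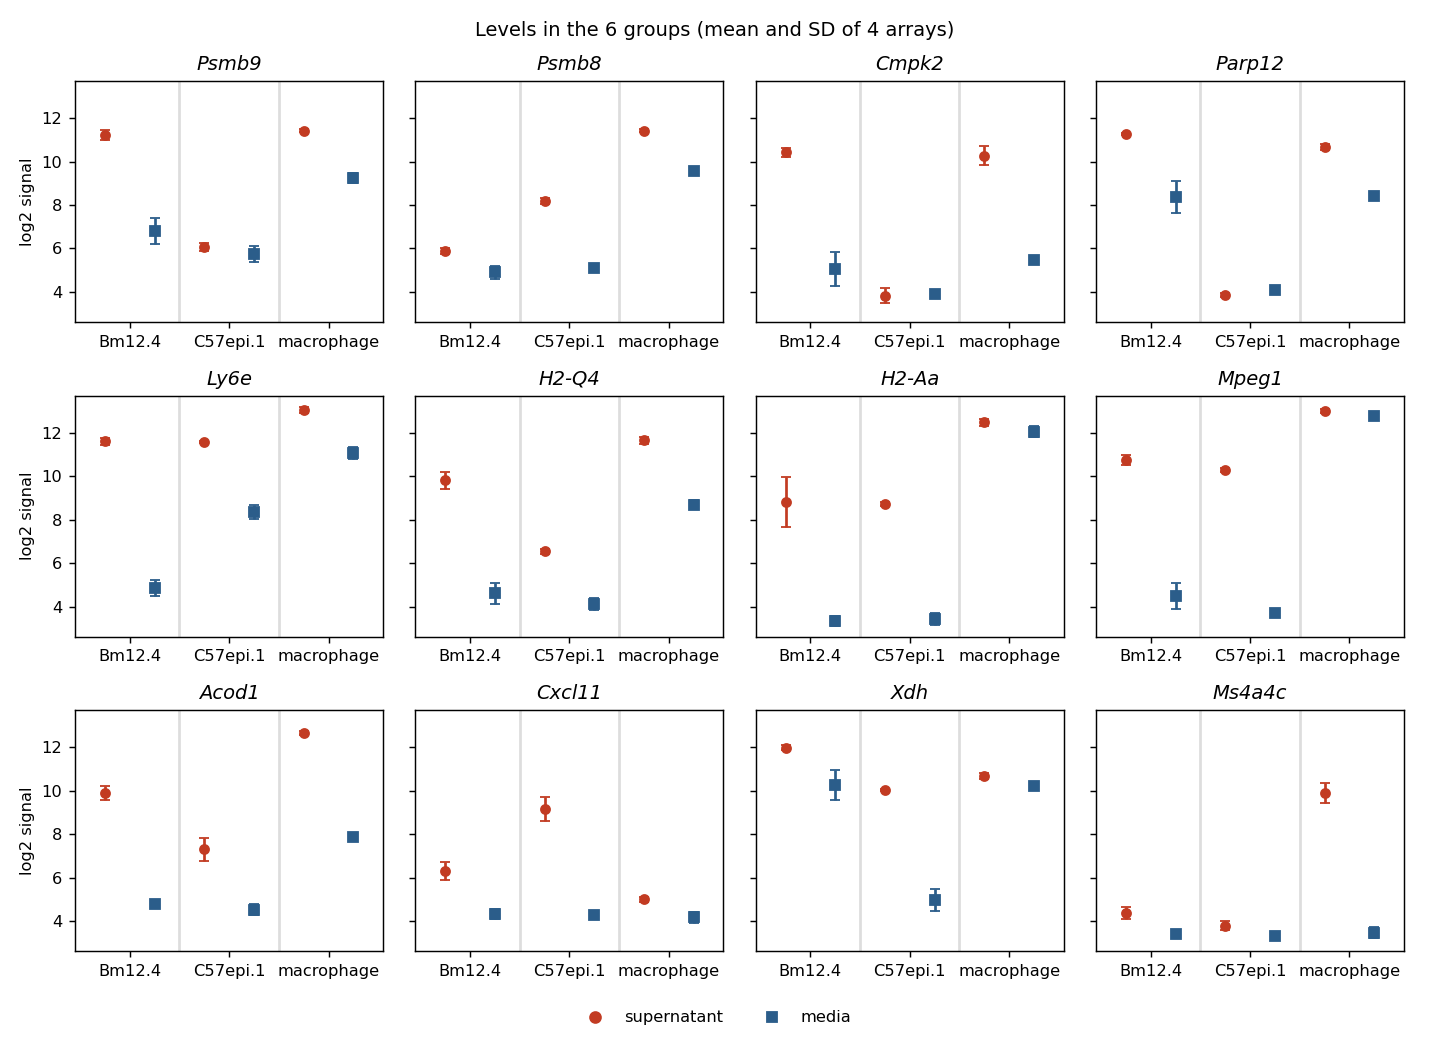
Mean log2 signal with SD (n = 4 arrays) of 12 genes in the 6 groups, with supernatant (red circles) left of media (blue squares) for each cell type. Psmb9, Cmpk2 and Parp12 are apart between supernatant and media in Bm12.4 and not in C57epi.1, and the H2-Aa and Mpeg1 media levels are low in both lines and high in macrophages.

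Against macrophages, the response of Bm12.4 differed for 1124 genes (5.64% of those tested), 636 with a higher and 488 with a lower response in Bm12.4. Genes whose macrophage level was already high led the first group. Mpeg1 averaged 10.7 ± 0.23 in supernatant and 4.48 ± 0.59 in media in Bm12.4, against 13.0 ± 0.09 in supernatant and 12.8 ± 0.14 in media in macrophages. H2-Aa averaged 8.81 ± 1.13 in supernatant and 3.35 ± 0.23 in media in Bm12.4, against 12.5 ± 0.17 in supernatant and 12.04 ± 0.25 in media in macrophages (SD, n = 4 each). The responses of Mpeg1 and H2-Aa differed by 6.00 ± 0.26 and 5.03 ± 0.46. Ly6e (4.75), Ms4a4d (4.42) and H2-Ab1 (4.36) followed, along with Apol10b (4.86), an apolipoprotein L gene whose macrophage mean stayed low, at 3.92 in supernatant and 3.77 in media. The macrophage response exceeded that of Bm12.4 most for the membrane-spanning genes Ms4a4c (−5.46), Ms4a6b (−5.43) and Ms4a6c (−5.38), the growth regulator Slfn1 (−5.13), the vasoconstrictor gene Edn1 (−4.30) and the alarmin Il33 (−3.94). Ms4a4c rose by 0.97 in Bm12.4, against 6.42 in macrophages, and Ms4a6b, Ms4a6c, Slfn1, Edn1 and Il33 were not called in Bm12.4. The costimulatory genes Cd40 and Cd86 rose in macrophages, by 3.17 and 2.68, and the differences from Bm12.4 were −3.25 ± 0.15 and −2.75 ± 0.15. Among 20 class II genes, 7 had a higher and 3 a lower response in Bm12.4 than in macrophages.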

How the data were processed

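The deposited values are log2 expression signals of 24 Affymetrix arrays, 100 ng of total RNA each, per the labels. The submitters' processing notes name GCOS, Partek 6.2 and RMA, so the authors' log2 values had been background-corrected and normalised before deposit. RMA compresses differences at low signals. Of 28853 probe sets, 21789 carry 1 gene symbol, 1621 several and 5443 none. Where a symbol had several probe sets, the one with the highest mean over all arrays was kept, leaving 19938 genes.

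A linear model with 1 mean for each of the 6 groups was fitted with limma 3.58.1 in R 4.3.3 (lmFit, eBayes, two-sided, 18 residual degrees of freedom). P-values were adjusted by Benjamini-Hochberg over all genes and called below 0.05. Differences between responses were interaction contrasts of that model. A second model had a separate mean in each group for replicates 3 and 4 and for replicates 1 and 2 (12 residual degrees of freedom). The fit was tested on simulated data.

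Same-numbered Bm12.4 arrays of supernatant and media deviated together from their group means (r = 0.683, 0.226, 0.666 and 0.42 for replicates 1 to 4). Every pair exceeded 0.1, so a fit with the replicate number as a block was run. Differently numbered arrays within replicates 1 and 2 or within replicates 3 and 4 deviated together about as much (r from 0.191 to 0.643), so number and set are hard to tell apart.

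The members and the 35 gene lists were chosen with earlier results of these data known. Genes were named by rule: the 12 largest rises and 10 largest falls with no overlap between groups and the same sign in both sets of replicates, the 6 largest differences each way in each comparison of responses, up to 6 called members each way of a list, and a short set of immune, epithelial and macrophage genes. Genes outside the rule, such as Aim2, Gbp2b, Psmb8, Ifitm2, Tap2, Mx1 and Casp1, were chosen after their values were seen. The alternatives are described in the closing section. Precision is limited by the 4 arrays a group.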

Additional observations from a re-analysis of the deposited data

Results flagged for a closer look

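2 named genes had 1 array standing apart from the other 3 of its group by Dixon's test, out of 138 groups tested, where chance gives about 1 in 20. Cdh1 reached 4.46 in 1 Bm12.4 supernatant array, and Ido1 reached 4.99 in supernatant replicate 1. The response of Bm12.4 differed from that of C57epi.1 for 803 genes, from that of macrophages for 1124 genes, and between replicates 3 and 4 and replicates 1 and 2 for 1835 genes, each by a limma interaction contrast.

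Against C57epi.1, the log2 difference in response (Bm12.4 minus C57epi.1) was higher for Cmpk2 (5.40), Psmb9 (4.09), Ly6e (3.54), Parp12 (3.09), H2-Q4 (2.80) and Prelp (2.68). It was lower for Xdh (−3.35), Apela (−3.26), Car6 (−3.17), Cxcl11 (−2.90), Phf11d (−2.75) and Mfsd2a (−2.60). Against macrophages, the difference (Bm12.4 minus macrophages) was higher for Mpeg1 (6.00), H2-Aa (5.03), Apol10b (4.86), Ly6e (4.74), Ms4a4d (4.42) and H2-Ab1 (4.36). It was lower for Ms4a4c (−5.46), Ms4a6b (−5.44), Ms4a6c (−5.38), Slfn1 (−5.13), Edn1 (−4.30) and Il33 (−3.94).

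Some probe sets outside the comparisons were also called between supernatant and media in Bm12.4. Of 1621 probe sets with several gene symbols 143 were called, and of 5443 with no symbol 215 were. Of all 28853 probe sets tested singly, 1993 were called.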

How the results depend on the processing

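Of 152 named-gene differences between supernatant and media (146 under the filter on mean level), none that was called changed sign under an alternative run, while some that were not called did. Its 1445 called genes became 786 in a fit on the 8 Bm12.4 arrays alone, 2225 with the 2 sets of replicates as a block, 2874 within replicates 3 and 4 and 2415 within replicates 1 and 2. Leaving out 1 Bm12.4 array gave 1142 to 1448. The count was 1628 with the replicate number as a block, which kept 1321 of the 1445, 1335 with arrays centred on their median, 1349 with a trended robust fit, 1580 after quantile normalisation, 1405 of 11574 genes with a mean level of at least 5, 1470 with probe sets averaged and 1993 of 28853 probe sets tested singly. The replicate block ended the calls of Alcam, Gla, Gpm6a and Rfxap among those values, and that of Aim2. Leaving out 1 array ended 8 to 14 of the 152. A fit on the 8 Bm12.4 arrays alone ended 31, more than any other alternative, among them Irf9, Ccl20, Saa3, Calr, Ifi30, Ido1 and Ifi27. It also ended the calls of Aldh1a7, Sema5a, Col5a2, Tgfbi, Ankrd1, Hk2, Pfkm, Abca1, S100a4, Gpm6a and Mmp8.

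The 803 genes that differed from C57epi.1 became 438 on the arrays of the 2 lines alone, 1210 with the replicate block, 1954 with the set block and 2042 within replicates 3 and 4, and 552 to 992 without 1 array. The 1124 that differed from macrophages became 1847 with the set block and 2106 within replicates 1 and 2, and 939 to 1160 without 1 array. The 1835 that differed between the sets became 779 without supernatant replicate 4, 950 without supernatant replicate 2, 1058 without media replicate 1 and 1142 without media replicate 4, and at most 2164 (without supernatant replicate 1). There the lone array of a set was assumed to vary like the others. Why these counts moved was not tested, other than that fits on fewer arrays estimate the spread from fewer. The number of arrays, 4 a group, limits the precision.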
